A study of Daphnia magna with 12 samples.

Results

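The transcripts of whole water fleas (Daphnia magna) kept in cholinium chloride (CholCl) were compared with those of animals kept in a dodecyl-methylimidazolium chloride (C12mimCl, labelled 1-dodecyl chloride-3-methylimidazolium). The comparison rests on 3 CholCl and 3 C12mimCl libraries, 6 of the 12 in the study, chosen by their labels. The others, 3 of C2mimCl (1-ethyl-3-methylimidazolium chloride) and 3 of Control (blank ASTM medium), entered the fit to estimate the spread and give the unexposed level. In all groups, neonates of brood 3 aged under 10 h were placed 120 to a vessel in 500 mL and held for 48 h without food. Both salts were used at the EC20, a concentration producing 20% of an effect. Neither the effect measured nor any concentration was given in the labels, which match the salts by effect level and not by dose. Each library came from 90 active animals of 1 vessel, so inactive animals were not sampled.

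The salts share chloride and differ in the cation. Cholinium is a small, water-loving quaternary ammonium ion with a hydroxyl group, which animals use to make phosphatidylcholine, the transmitter acetylcholine and, by oxidation, the methyl donor betaine. The C12mimCl cation joins a charged aromatic ring to a long dodecyl chain, as a cationic surfactant does, and such cations are known to insert into lipid membranes. Daphnia is a freshwater crustacean and a standard organism of toxicity tests, in which young animals moult repeatedly during the first days of life.

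The files hold 46334 gene rows, of which 23463 had no read in the 6 libraries, and 15847 passed the filter on low counts. The CholCl libraries held 12921872 to 13767107 reads in genes and the C12mimCl libraries 13406061 to 15539051. The identifiers are numbers without names and 0 of them matched the reference table, so no gene could be given a function, and the whole-body label could not be set against marker genes. Genes are therefore described by their response, their abundance and a few identifiers. CholCl replicate 3 stood somewhat apart from its group. Its log2 CPM (counts scaled to the size of each library) correlated with those of the Control libraries at r = 0.882 to 0.894 across genes, against 0.801 to 0.835 for the other CholCl libraries. It still correlated best with these, at 0.958 and 0.967. C2mimCl replicate 1 also stood apart from its group. Reads outside genes were 5.25% to 5.83% of the CholCl libraries, 8.11% to 10.1% of the C12mimCl libraries and 6.32% to 8.39% of the Control libraries. Because this share does not overlap between CholCl and C12mimCl, it cannot be told apart from the salt, and values from a fit with this share as a covariate are given beside the results it changed.

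The first question was how far the salts differed from each other. Of the 15847 genes tested, 9075 (57.3%) differed between CholCl and C12mimCl in edgeR's quasi-likelihood test, with a Benjamini-Hochberg adjusted p below 0.05. They were split almost evenly, with 4387 genes (27.7%) higher and 4688 (29.6%) lower in CholCl. Against Control, the same fit called 38.3% of genes for CholCl and 35.3% for C12mimCl. The median difference among called genes was 2.55-fold, or 2.33-fold for the higher and 2.88-fold for the lower ones. The 3 libraries of CholCl did not overlap the 3 of C12mimCl for 70.8% of genes tested (34.3% higher and 36.5% lower in CholCl). For 3190 called genes, 35.2% of them, the whole 95% interval of the difference lay beyond 2-fold. Of the 9075 genes, 6743 were called in the same direction in each of the 6 fits that left out 1 of the compared libraries. With the percentage of reads outside genes added as a covariate, 4180 genes were called, 3321 of them shared with the 9075 in the same direction.

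**Figure D1:**
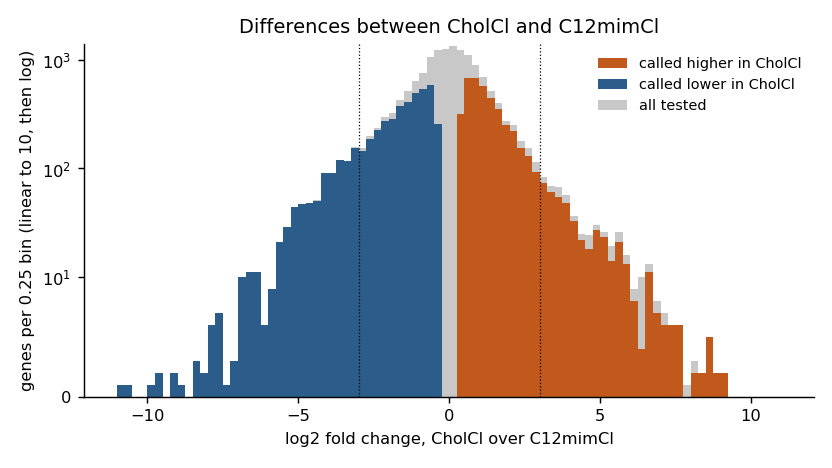
Number of genes (vertical axis, linear up to 10 and logarithmic above) by log2 fold change of CholCl over C12mimCl in bins of 0.25. Grey bars are the 15847 genes tested, orange bars the 4387 called higher in CholCl and blue bars the 4688 called lower; dotted lines mark 8-fold, beyond which 469 genes lie on the higher and 888 on the lower side.

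The even split did not extend to the large differences. At 2-fold or more, 2697 genes were higher and 3294 lower in CholCl, and at 4-fold or more 1067 and 1724. At 8-fold or more, 469 (2.96% of genes tested) were higher and 888 (5.6%) lower. At the far end the counts were close again, with 61 higher and 70 lower at 64-fold or more, and 31 and 32 at 128-fold or more. The 8-fold counts were 390 higher and 1044 lower without CholCl replicate 3, and ranged from 390 to 549 and from 861 to 1044 over the fits that left out each compared library. With the percentage of reads outside genes added as a covariate, 351 genes were 8-fold higher and 885 lower, and 178 of the 469 were still called at 8-fold or more. How many of the 888 were among the 885 was not counted. In 130 of the 469 genes the C12mimCl group had 3 reads or fewer in all, and in 100 of the 888 the CholCl group had. With 3 reads taken as the least level of a group, a floor applied to such genes, 465 and 885 were still 8-fold apart, and the median folds were 14.6 and 14.7.

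The share of genes called differed with abundance. Genes averaging under 1 CPM over the 6 libraries were called in 40.1% of cases, evenly on both sides. The share was 53.8% from 1 to 10 CPM, 62.6% from 10 to 100 CPM and 67.4% from 100 to 1000 CPM. Among the 102 genes averaging 1000 CPM or more, 24 were higher and 45 lower in CholCl. The genes 8-fold higher in CholCl were mainly scarce in these 6 libraries, 352 of 469 averaging under 10 CPM. They were not all scarce in unexposed animals. In 162 of the 469 the Control mean was above both salts, with medians of 37.4 to 66.7 CPM in the Control libraries. Of the 888 genes 8-fold lower, 415 averaged 10 CPM or more, beside 8211 of all 15847 genes tested.

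**Figure D2:**
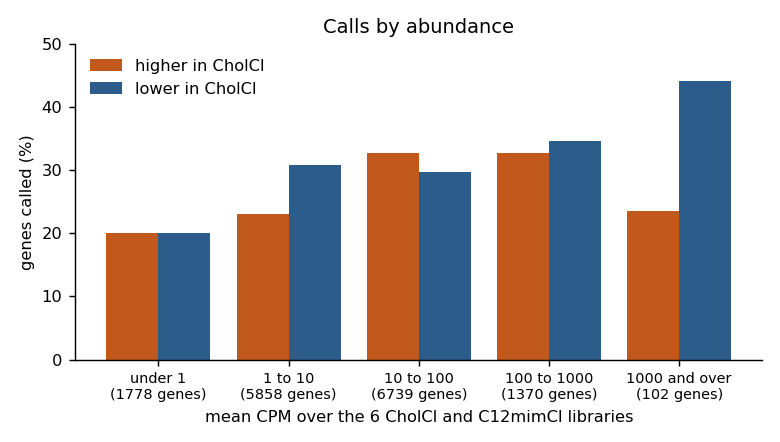
Share of genes called (vertical axis, %) by mean CPM over the 6 CholCl and C12mimCl libraries (horizontal axis, with the number of genes in each class). Orange bars are genes higher in CholCl and blue bars genes lower in CholCl; the bars are level at 20.1% and 20% under 1 CPM, and lie at 23.5% and 44.1% from 1000 CPM.

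The genes that differed most were then followed through all libraries. The Control libraries had entered their choice through the count filter, the shared scaling and the estimate of spread, but not through the fold change. The 469 genes 8-fold higher in CholCl together held 3.08%, 3.22% and 3.43% of gene reads in the CholCl libraries. In the C12mimCl libraries they held 0.179%, 0.239% and 0.197%, and in the Control libraries 3.73%, 2.5% and 3.21%. The sum over the 469 joins unlike genes. For the 302 of them whose Control mean lay between the salts, the share was 2.86%, 3.04% and 3.02% in CholCl, 0.166%, 0.223% and 0.182% in C12mimCl, and 1.21%, 0.815% and 1.08% in Control. The choice of the 302 by the Control mean sets that order. A further 162, with Control above both salts, are described after the positions gene by gene. The 888 genes 8-fold lower in CholCl held 0.509%, 0.623% and 1.04% of gene reads in the CholCl libraries. They held 11.8%, 9.96% and 12.6% in the C12mimCl libraries, and 6%, 7.63% and 6.9% in the Control libraries. The choice by fold sets the order of the salts in the 469 and in the 888 genes. The summed share of the 888 lay below the unexposed level in every CholCl library and above it in every C12mimCl library. In bulk samples, fewer cells of a type and less RNA per cell cannot be told apart.

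**Figure D3:**
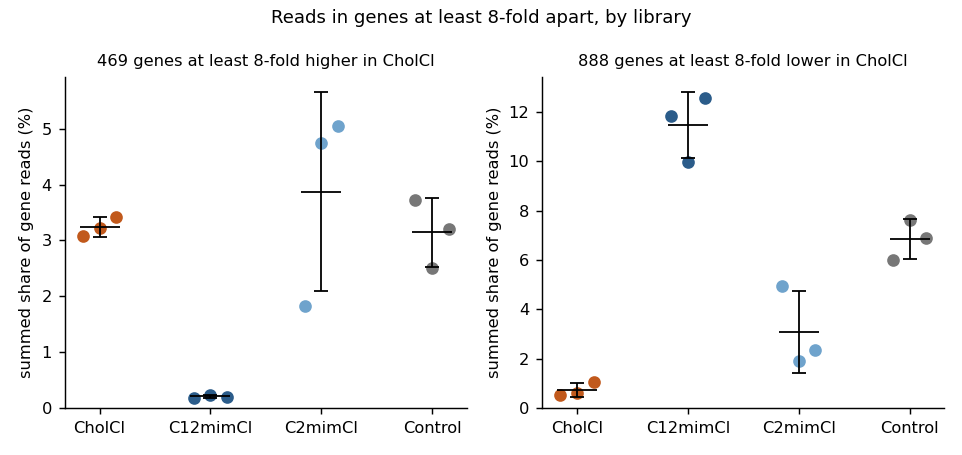
Summed share of gene reads (vertical axis, %) held by the 469 genes at least 8-fold higher (left) and the 888 genes at least 8-fold lower (right) in CholCl than in C12mimCl. Points are libraries and bars the mean ± SD of 3 libraries in CholCl, C12mimCl, C2mimCl and Control; on the left C12mimCl stays under 0.24% while CholCl and Control overlap, and on the right CholCl, Control and C12mimCl lie in that rising order without overlap.

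Gene by gene, the Control mean lay between the means of the salts for 828 of the 888 genes 8-fold lower in CholCl (93.2%), and for 302 of the 469 genes 8-fold higher (64.4%). Over all genes tested it did so for 52.8%. A wide gap between the salts leaves more room for Control to lie between, so the choice by fold favours this position. By their means, the salts stood mostly on opposite sides of Control in these genes, at unequal distances. In the 888 genes the median log2 fold change over Control was -3.07 for CholCl and 0.92 for C12mimCl. In the 469 genes it was 0.71 for CholCl and -3.57 for C12mimCl. CholCl was nearer to Control than C12mimCl was in 381 of the 469 genes (81.2%) and in 95 of the 888 (10.7%), against 48.3% of all genes tested. Where Control lay above or below both salts, the order of the means alone fixes which salt was nearer. Among genes with Control between the salts, CholCl was nearer in 219 of the 302 higher genes (72.5%) and in 94 of the 828 lower ones (11.4%), against 45.9% of the 8361 such genes among all tested. These positions share the 3 Control libraries and are given without a test. Without Control replicate 3, CholCl was nearer in 20.3% of the genes 8-fold lower. Over 14 other choices of libraries and scaling, added after the data were seen, the share nearer to Control was 75.9% to 83.1% for the higher genes. For the lower genes it was 7.72% to 20.3%. Over the same choices, Control lay between the salts for 58.5% to 82.1% of the higher genes and 88.9% to 95.9% of the lower ones. Without CholCl replicate 3 these shares were 82.1% and 89.8%.

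All 3 Control libraries lay between the CholCl and C12mimCl libraries, with no overlap on either side, for 345 of the 888 genes (38.9%) and 197 of the 469 (42%). The same held for 18.1% of all genes tested, and here too the choice by fold favours this position. Among all called genes, the Control mean lay between the salts for 81.2% of those lower and 69.2% of those higher in CholCl. Genes at which both salts stood on the same side of Control, yet differed, were fewer. Of the 9075 called, 1317 were lower than Control in both and 918 higher than Control in both.

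**Figure D4:**
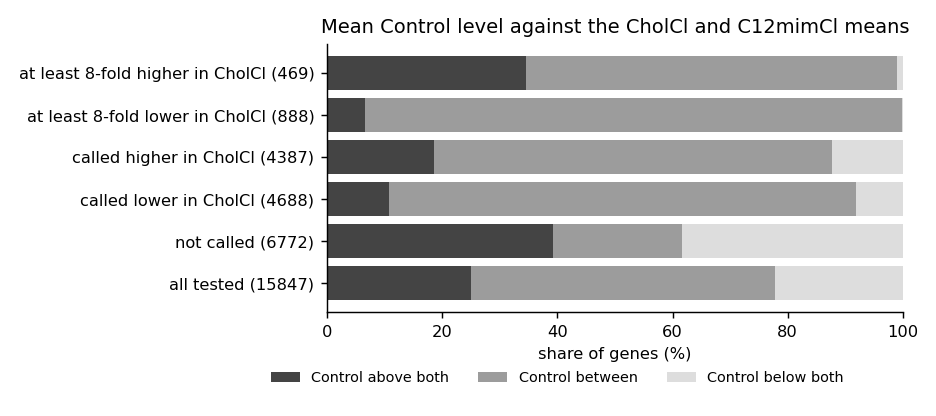
Share of genes (horizontal axis, %) whose mean Control level lay above, between or below the CholCl and C12mimCl means, by group of genes, with the number of genes in brackets. The Control mean lay between for 93.2% of the genes 8-fold lower in CholCl and 64.4% of those 8-fold higher, against 22.5% of genes not called. A wide gap between the salts leaves more room for Control to lie between.

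In 162 of the 469 genes 8-fold higher in CholCl, the Control mean was above both salts. Genes scarce in both salts could pass the count filter through their Control or C2mimCl reads. With the 6 compared libraries filtered and fitted alone, 365 genes in all were 8-fold higher. In that fit 71 of the 162 passed the filter and 65 were called at 8-fold or more, against 288 tested and 288 called of the 302 with Control between the salts. These counts within the 162 and 302 genes were added after the data were seen. The 162 genes held 0.128%, 0.0994% and 0.33% of gene reads in the CholCl libraries, and 0.00908%, 0.013% and 0.0109% in the C12mimCl libraries. In the Control libraries they held 2.52%, 1.68% and 2.12%. The choice of the 162 by fold and by the Control mean sets that order, with C12mimCl lowest and Control highest. CholCl replicate 3 was the highest of the CholCl libraries in 143 of the 162. Their median level there was 10.4 CPM, against 1.5 and 0.624 CPM in CholCl replicates 1 and 2, and 37.4 to 66.7 CPM in the Control libraries. Their 8-fold calls varied with single libraries and with the covariate. With the percentage of reads outside genes added as a covariate, 19 of the 162 and 158 of the 302 were still called at 8-fold or more. Without CholCl replicate 3, 64 of the 162 were still called at 8-fold or more. Without C12mimCl replicates 1, 2 and 3 the number was 82, 91 and 101. The 302 genes with Control between the salts depended less on any library, 269 to 295 of them being called at 8-fold or more in the same 6 fits.

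The second largest rise under the rule for named genes belongs to these 162, and its reads were uneven between the CholCl vessels. That gene had 109, 3 and 1461 reads in CholCl replicates 1, 2 and 3, and 3, 1 and 1 reads in the C12mimCl libraries. The Control libraries had 17456, 8738 and 9272. Every CholCl library was therefore far below every Control library, and replicate 2 was at the C12mimCl level. Its log2 difference between the salts was 8.36 (SE 2.05, adjusted p = 0.006 by edgeR's quasi-likelihood F test). It was 5.04 without CholCl replicate 3, and it was not called by limma-voom (5.27, adjusted p = 0.36). Nor did edgeR's test call it with the percentage of reads outside genes added as a covariate (4.65, adjusted p = 0.43). The gene did not pass the count filter when the 6 compared libraries were filtered alone.

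The spread between replicate vessels was then measured in each group. Over 8211 genes averaging at least 10 CPM in the 6 libraries, the median coefficient of variation was 8.51% in CholCl, 10.9% in C12mimCl, 19.3% in C2mimCl and 15.2% in Control. The lowest and highest library of a group differed by more than 8-fold in 61 of these genes in CholCl, 8 in C12mimCl, 228 in C2mimCl and 3 in Control. The genes 8-fold apart were counted without this minimum level, and 352 of the 469 higher ones averaged under 10 CPM. Their counts cannot be set against those above. Among the 469 genes 8-fold higher in CholCl, 95 had so wide a range within CholCl, and CholCl replicate 3 was the highest in 88 of them. Among the 888 genes 8-fold lower, 26 had so wide a range within CholCl, and CholCl replicate 3 was the highest in all 26.

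Named genes were taken by rule. Dapma7bEVm007335 had the smallest p among genes higher in CholCl. It had 1555, 1676 and 1941 reads in the CholCl libraries against 82, 100 and 82 in the C12mimCl libraries, with 2050, 1487 and 1197 in Control. The CholCl libraries were all above the C12mimCl libraries and overlapped the Control libraries in CPM. Its mean was 130 ± 22.8 CPM in CholCl and 6.36 ± 1.21 CPM in C12mimCl (SD, n = 3 each). The log2 difference was 4.35 (SE 0.211, adjusted p = 2.7e-06 by edgeR's quasi-likelihood F test). Over Control it was 0.30 for CholCl (adjusted p = 0.22) and -4.05 for C12mimCl (adjusted p = 6.6e-06), by the same test.

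The largest rise among genes meeting the conditions of level and separation was that of Dapma7bEVm018253. It had 348, 543 and 634 reads in the CholCl libraries, against 3, 0 and 1 in the C12mimCl libraries, with 211, 189 and 49 in Control. Here the Control libraries lay between the salts without overlap. The log2 difference between the salts was 8.53 (SE 0.803, adjusted p = 2.9e-05 by edgeR's quasi-likelihood F test). With 4 reads in the C12mimCl group, its size is known only roughly, and it was 8.02 to 9.66 without single libraries. Over Control the log2 fold change was 1.97 for CholCl (adjusted p = 0.014) and -6.56 for C12mimCl (adjusted p = 0.00047).

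Dapma7bEVm018393 had the smallest p among genes lower in CholCl. It had 15, 19 and 20 reads in the CholCl libraries against 551, 509 and 430 in the C12mimCl libraries, and 676, 615 and 423 in Control. The C12mimCl and Control libraries overlapped, and every CholCl library was far below them. Its mean was 1.35 ± 0.242 CPM in CholCl and 35.5 ± 2.97 CPM in C12mimCl (SD, n = 3 each), and the 95% interval of the log2 difference was -5.09 to -4.33.

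Dapma7bEVm004192 had the largest fall. It had 2, 5 and 3 reads in the CholCl libraries, against 9316, 4003 and 3852 in the C12mimCl libraries and 2222, 3063 and 1006 in Control. All C12mimCl libraries were above all Control libraries, and CholCl was almost without the transcript. The log2 difference was -10.59 (SE 0.631, adjusted p = 4.8e-06 by edgeR's quasi-likelihood F test), and -10.92 to -10.19 without single libraries. Over Control it was -9.07 for CholCl (adjusted p = 3.4e-05) and 1.52 for C12mimCl (adjusted p = 0.015).

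**Figure D5:**
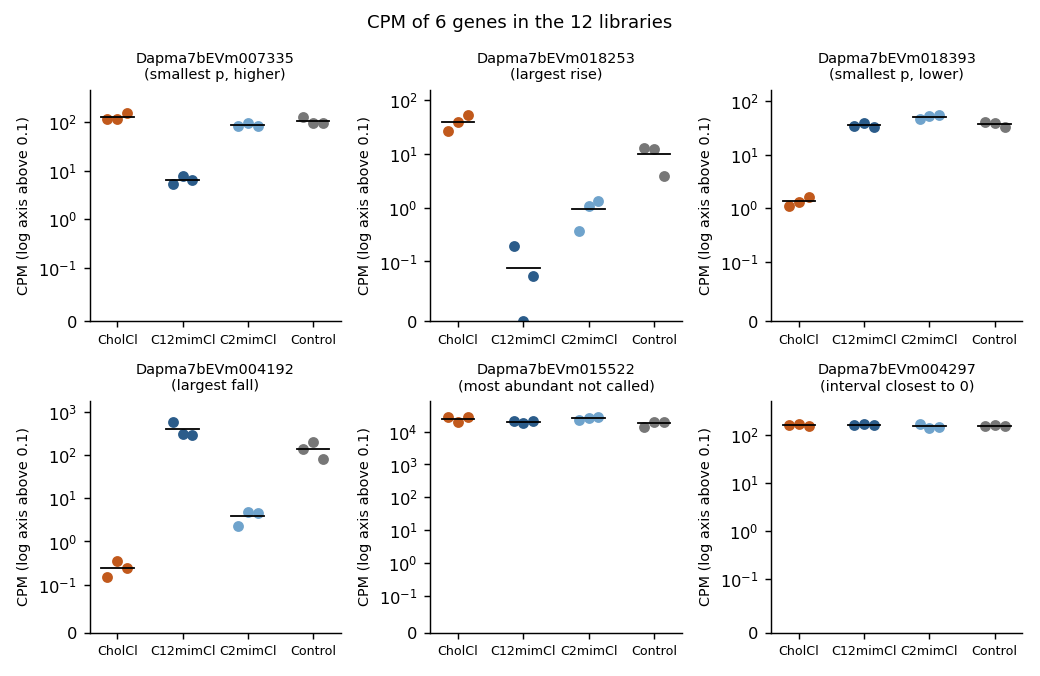
CPM (vertical axis, logarithmic above 0.1 and linear below) of the 6 genes chosen by rule, in CholCl, C12mimCl, C2mimCl and Control. Points are libraries and lines the means of 3; Dapma7bEVm004192 averages 0.246 CPM in CholCl and 396 CPM in C12mimCl, whereas Dapma7bEVm004297 averages 162 and 164 CPM.

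Few genes with at least 30 reads in all in 1 salt had none in the other. For 12 genes the CholCl libraries had 0 reads while the C12mimCl libraries had at least 30 in all, and for 31 genes the reverse held. Each of the 43 had at least 1 read in Control. Of the 12, 11 were tested and 11 called, and all 12 had reads in every C12mimCl library. Of the 31, 30 were tested and 22 called, and 21 had reads in every CholCl library. Over all genes tested 57.3% were called, but the choice of these genes by reads in the same libraries favours a call. The most strongly expressed of the 12 had 564, 327 and 307 reads in the C12mimCl libraries and 198, 189 and 118 in Control. It was at least 382-fold lower in CholCl, where 3 reads in the group were taken as its floor. The counterpart among the 31 had 51, 89 and 71 reads in the CholCl libraries, none in C12mimCl and 21, 34 and 8 in Control. It was at least 73.5-fold higher in CholCl by the same floor.

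Of the 10 most abundant genes, 6 were called, 3 higher and 3 lower in CholCl, a share close to the 57.3% of all genes tested. The most abundant gene took 17.5% ± 3.01 of gene reads in CholCl, 8.09% ± 0.488 in C12mimCl and 7.55% ± 1.62 in Control (SD, n = 3 each). In CPM it stood at 197847, 131379 and 200626 in the CholCl libraries and at 83990, 77279 and 84242 in the C12mimCl libraries, without overlap. Its log2 difference was 1.11 (SE 0.285, adjusted p = 0.0073 by edgeR's quasi-likelihood F test). The call was lost with the percentage of reads outside genes added as a covariate (0.23, adjusted p = 0.78) and against a 2-fold threshold (adjusted p = 0.41). Among the 10 the largest fall was that of the seventh in rank, which took 0.366% ± 0.085 of gene reads in CholCl and 1.04% ± 0.0505 in C12mimCl (SD, n = 3 each).

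The concentration of reads in few genes was measured with and without this transcript. The 100 most abundant genes of each library held 44.5%, 40.4% and 44.4% of gene reads in CholCl, and 36.8%, 36.3% and 37.9% in C12mimCl. In Control they held 31% to 34.7%. In CholCl 171 to 239 genes made up 50% of the reads, against 243 to 263 in C12mimCl and 332 to 436 in Control. Without the most abundant gene, the numbers were 374 to 402 in CholCl, 319 to 338 in C12mimCl and 441 to 551 in Control, which turns the order of the salts round. All genes called higher in CholCl held 51.5% ± 1.65 of gene reads in CholCl and 21.9% ± 0.183 in C12mimCl. Without the most abundant gene they held 41.2% ± 0.46 and 15% ± 0.641. All genes called lower held 16.8% ± 0.957 in CholCl and 46.1% ± 0.456 in C12mimCl (SD, n = 3 each). The choice of genes by direction sets the order of the salts in these shares.

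The last question was which genes were alike in the salts, which a missed threshold alone does not show. For 4803 genes (30.3% of those tested) the difference was bounded within 2-fold by its 95% interval. The number was 1942 with the percentage of reads outside genes added as a covariate. Of the 4803, 1269 were still called, with small differences, and 3534 were not. A further 3238 genes were neither called nor bounded within 2-fold, so that the data leave their difference unresolved. The bounded share was 2.02% for genes under 1 CPM, 20.9% from 1 to 10 CPM and 44.1% from 10 to 100 CPM. The 4803 genes held 36.4% to 39% of gene reads in the CholCl libraries, 36.9% to 37.7% in the C12mimCl libraries and 34.2% to 35.6% in the Control libraries. Their choice as alike favours near shares in the salts. With the most abundant gene left out of the total, they held 45.1% to 46.4% in CholCl, 40.3% to 40.8% in C12mimCl and 37.3% to 38.9% in Control.

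Dapma7bEVm004297 had the interval closest to 0 among genes averaging at least 100 CPM. It stood at 159, 171 and 157 CPM in the CholCl libraries, at 161, 168 and 161 CPM in the C12mimCl libraries and at 158, 163 and 151 CPM in Control. The groups overlapped throughout, and the 95% interval of the log2 difference was -0.25 to 0.22. The most abundant gene that was not called, Dapma7bEVm015522, averaged 24815 ± 4324 CPM in CholCl and 19748 ± 1828 CPM in C12mimCl (SD, n = 3 each). Its log2 difference was 0.33 with a 95% interval of -0.08 to 0.74 (adjusted p = 0.15 by edgeR's quasi-likelihood F test), so a difference of up to 1.67-fold was not resolved.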

How the data were processed

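The authors deposited raw read counts per gene for each library, with 5 summary rows; per the submitters' processing notes, Trimmomatic 0.39, STAR 2.7.3a and HTSeq were used. The genome build, annotation and strand setting were not given in the sources used here. Overlapping, antisense or near-identical genes therefore have uncertain counts. Summary rows (ambiguous reads at 0 in each library) were dropped before scaling and testing.

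Tests used edgeR 4.0.16 in R 4.3.3: expression filter by group (minimum count 10, minimum total 15), TMM factors and a robust quasi-likelihood fit with 1 mean per group over the 12 libraries. The 15847 genes tested held 99.9% of gene reads. Standard errors and 95% intervals came from the fold change, its F statistic and its degrees of freedom, and include the spread between vessels; 3 genes with F at 0 have none. The fit was tested on simulated data. Floors and Wilson intervals cover counting error only; the 95% Wilson interval on each share of reads outside genes was at most 0.0144 percentage points to either side.

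Replicates are separate vessels of 1 neonate batch; the closest pair of libraries differed by 15.9 per degree of freedom (chi-square over genes), so each counted as 1. The rule for named genes took the smallest p and the largest fold in each direction (groups apart, at least 10 CPM in the higher group, over 3 reads in the lower), the most abundant gene not called and the gene of at least 100 CPM with the interval closest to 0; genes given by rank were chosen after their values were seen. The comparison, groups and rules were chosen with earlier results of these data known. Alternatives included DESeq2 1.42.0 and limma-voom (limma 3.58.1).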

Additional observations from a re-analysis of the deposited data

How the results depend on the processing

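The counts of calls, of 8-fold calls and of intervals within 2-fold stayed within 1.5 times their value under other scaling (RLE, upper quartile), count filters, DESeq2 and limma-voom (where each gives one), a fit of the 6 libraries and leaving out each of the 12 libraries. Leaving out single libraries gave 7716 to 10309 genes called, with 3692 to 4947 higher and 3941 to 5362 lower in CholCl. It gave 390 to 549 genes 8-fold higher, 861 to 1044 8-fold lower and 4117 to 5347 within 2-fold. With the percentage of reads outside genes added as a covariate, the counts were 4180 called, 2122 higher, 2058 lower, 351 8-fold higher, 885 8-fold lower and 1942 within 2-fold. Against a 2-fold threshold, which by construction calls fewer genes, they were 3311, 1431 and 1880. The cause of the fall with the covariate was not tested. Scaling moved the share of lower calls from 51.7% to 48.9% (RLE) and 49.2% (upper quartile). The replicate numbers share only a label. Deviations of same-numbered CholCl and C12mimCl libraries correlated at 0.0542 to 0.274, and 4 of 12 libraries correlated best with their own number; with the replicate number as a block 8792 genes were called. Genes under 1 CPM were too shallow to bound most differences.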

Other observations

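The C2mimCl libraries, which entered the comparison through the count filter, the shared scaling and the estimate of spread, were set beside it. The 469 genes 8-fold higher in CholCl than in C12mimCl held 1.83%, 4.75% and 5.04% of gene reads in C2mimCl replicates 1, 2 and 3, and the 888 genes 8-fold lower held 4.96%, 1.89% and 2.33%. On the log2 scale, the C2mimCl mean was nearer to CholCl than to C12mimCl for 81.2% of the 469 genes and 58.6% of the 888, against 57.5% of all genes tested. Without C2mimCl replicate 1, which stood apart from its group, these shares were 85.7% and 79.8%, against 66.1% of all genes tested. Where C2mimCl lay above or below both salts, the order of the means alone fixes which salt was nearer. In the 162 of the 469 genes with Control above both salts, the median level was 23.5, 83.8 and 84.7 CPM in C2mimCl replicates 1, 2 and 3. In the CholCl libraries it was 0.624 to 10.4 CPM, so by median C2mimCl lay far above CholCl there. C2mimCl shares its ring with C12mimCl and differs from it in chain length. These positions are descriptions with no test. Dapma7bEVm004192 had 38, 58 and 54 reads in the C2mimCl libraries, between those of CholCl and C12mimCl, and Dapma7bEVm018253 had 6, 13 and 16, above those of C12mimCl and below those of Control.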
